A study of Mus musculus with 4 samples.

Results

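The VEGF system of a tumor cell line was followed here in B16-F10 cells, an established mouse melanoma line, through 10 genes: 3 ligands (Vegfa, Vegfb, Vegfc), 4 receptors and coreceptors (Flt1, Kdr, Nrp1, Nrp2) and 3 genes best known from endothelium (Eng, Plvap, Vwf). They are 10 of 53465 genes in the deposited count table, found by their symbols. Cells carrying a fluorescent label were put into zebrafish, isolated again and kept in IMDM with 10% FBS before their mRNA was sequenced. Of the 4 libraries, 2 came from cells labelled as having left the vessels (extravasated) and 2 from cells labelled as not having done so (not extravasated), which the series' design names as the control. The growth text of all 4 libraries describes extravasated cells, and the grouping was taken from the separate extravasation entry and the source name. All groups share the cell line, the passage through zebrafish, the medium and the serum. No genotype, age, duration of culture or number of fish is given, and neither is how the cells were separated from zebrafish cells. A number in the titles changes with the group, and its effect and that of extravasation cannot be told apart. Whether libraries of 1 group are separate cultures is not stated, and p-values here cover the spread between these samples only, which may be technical.

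Vegfa, Plvap and Vwf were chosen partly because their levels differed by extravasation label. Their levels and fold changes are therefore given as descriptions, without a test. The other 7 genes were listed for their place in the system and were read from a test over all genes.

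As background, VEGF ligands are secreted dimers that drive vessel growth. They act through receptor tyrosine kinases, FLT1 and KDR for VEGFA, FLT1 for VEGFB, and FLT4 and KDR for VEGFC. The neuropilins NRP1 and NRP2 have no kinase of their own and serve as coreceptors for VEGFs and, with plexins, for class 3 semaphorins. Low oxygen raises Vegfa transcription through the hypoxia-inducible factors (HIF). Tumor cells are a common source of VEGFA, while FLT1, KDR, PLVAP and VWF mark mainly endothelial cells.

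RefSeq promoter windows (GRCm38.p6) were at hand for 8 of the 10 genes. The 250 bases before the start site are printed for Vegfa and Vegfb, the ligands whose levels lay on opposite sides of the controls, and for Kdr, which had no read. Capitals mark the GC box GGGCGG and the HIF core ACGTG or GCGTG, each searched on both strands, 5′ to 3′ on the strand of the gene. Vegfa lies at chr17:46032378-46032627 (minus strand), Vegfb at chr19:6987652-6987901 (minus strand) and Kdr at chr5:75978456-75978705 (minus strand).
Vegfa: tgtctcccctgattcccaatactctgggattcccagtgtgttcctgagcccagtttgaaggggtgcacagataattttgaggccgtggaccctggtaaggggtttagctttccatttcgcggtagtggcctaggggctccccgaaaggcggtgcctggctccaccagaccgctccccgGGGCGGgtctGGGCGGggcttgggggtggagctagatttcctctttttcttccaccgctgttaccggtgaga
Vegfb: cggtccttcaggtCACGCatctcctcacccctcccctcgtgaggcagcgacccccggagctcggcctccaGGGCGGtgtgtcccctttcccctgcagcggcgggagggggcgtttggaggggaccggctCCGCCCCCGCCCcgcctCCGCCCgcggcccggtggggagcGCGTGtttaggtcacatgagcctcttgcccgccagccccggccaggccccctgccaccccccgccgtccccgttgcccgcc
Kdr: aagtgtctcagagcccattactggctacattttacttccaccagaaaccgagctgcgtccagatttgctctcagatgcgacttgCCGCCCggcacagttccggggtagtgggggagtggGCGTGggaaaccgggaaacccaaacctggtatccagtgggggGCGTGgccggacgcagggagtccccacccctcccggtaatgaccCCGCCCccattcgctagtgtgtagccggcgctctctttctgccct
The printed Vegfa window held the GC box 2 times and no HIF core, the Vegfb window held 4 GC boxes and 2 HIF cores, and the Kdr window held 2 of each. Of all 32851 promoter windows of this length, 32.7% held a GC box and 38.6% a HIF core. The GC content of the Vegfb window, 76.4%, was above that of Vegfa (59.2%) and Kdr (61.6%), against a median of 52.4% over all windows. A second, internal Vegfa start has a window of its own (chr17:46025164-46025413, minus strand, not printed), which held 1 GC box and 2 HIF cores, 1 ACGTG and 1 GCGTG. A match describes letters only, and its absence says nothing about a factor.

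Across the 10 genes, 8 had reads and passed the expression filter, while Flt1 and Kdr had none in any library. Levels are TMM-scaled CPM, CPM being counts scaled to a common library total, after trimmed-mean scaling. Among the 8, the groups did not overlap for 7 genes: Vegfb, Eng, Plvap and Vwf were higher in both extravasated libraries, and Vegfa, Nrp1 and Nrp2 were lower in both. Of all 12320 tested genes 76.3% did not overlap either, 37.3% higher and 39% lower, and the direction of Vegfa, Plvap and Vwf was part of their choice. Of the 5 tested genes not chosen by pattern, 1 (Vegfb) rose and 1 (Nrp1) fell by the edgeR quasi-likelihood test at an adjusted p under 0.05, where 19.1% and 25.9% of all tested genes rose and fell (45.1% in either direction). With an offset for GC content and length, described next, 1 rose (Vegfc) and 1 fell (Nrp1), against 8.24% and 5.8% of all tested genes (14% in either direction).

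**Figure D1:**
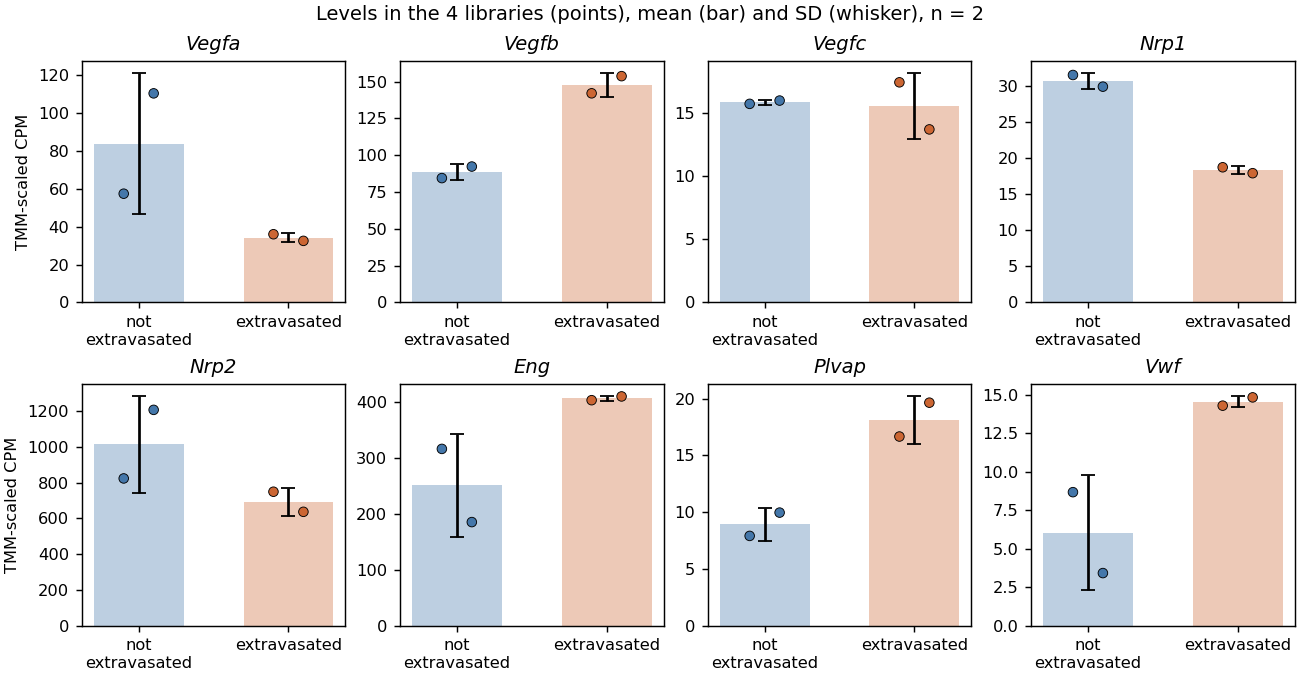
TMM-scaled CPM of the 8 genes with reads, with each library as a point, the group mean as a bar and the SD as a whisker (n = 2 each). Vegfa is spread widely in the not extravasated group, at 57.5 and 110.5 CPM, and Eng and Vwf are spread in the same group, while the extravasated libraries lie close together for these 3 genes.

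Library totals were 11705904 to 19674733 counts. Fold changes over 11126 nuclear coding genes followed the GC content of the annotated transcript (Spearman rho 0.743 across genes, which are not independent replicates). Values are therefore given also from a fit with an offset for transcript GC content and length, which brought that rho to 0.0123. With that offset 1729 genes were called, 1015 higher and 714 lower, against 5551 (2355 and 3196) without it. All 10 melanocyte markers had reads, with summed levels of 24264 to 31895 CPM.

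Vegfa (ENSMUSG00000023951, chromosome 17, 46016993 to 46032369, minus strand), the main angiogenic ligand, had 662 reads in not_extravasated_1, 1909 in not_extravasated_2, 476 in extravasated_1 and 618 in extravasated_2. These were 57.5 and 110.5 CPM without extravasation and 36.0 and 32.5 CPM with it. Both extravasated libraries were low and close together, and the controls differed from each other 1.92-fold. Group means were 84.0 ± 37.5 and 34.3 ± 2.47 CPM (SD, n = 2 each), a log2 fold change of -1.30 ± 0.318 (SE), or 2.46-fold lower. The difference was -0.75 without not_extravasated_2 and -1.69 without not_extravasated_1. With the offset it was -1.76 on the principal transcript of 654 bases and -1.34 on the longest one of 3451 bases.

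Vegfb (chromosome 19, 6982473 to 6987651, minus strand), a ligand of FLT1 linked to the survival of vessel cells more than to their growth, stood at 84.5 and 92.3 CPM in the controls and at 142.0 and 153.7 CPM in extravasated cells. Replicates lay within 1.09-fold of each other and the groups did not overlap. It rose 1.67-fold (log2 fold change 0.74 ± 0.127, SE; edgeR adjusted p = 0.00387). With the offset its log2 fold change was 0.07 (adjusted p = 0.691), and without extravasated_2 and no offset it was 0.65 (adjusted p = 0.0611). Its transcript is richer in G and C (61.9%) than nearly all tested genes, at percentile 98.

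Vegfc (chromosome 8, 54077606 to 54187096, plus strand), the lymphangiogenic ligand, stood at 15.7 and 16.0 CPM in the controls and 17.4 and 13.7 CPM in extravasated cells. The extravasated values lay on both sides of the controls. Its log2 fold change was -0.03 ± 0.201 (SE; edgeR adjusted p = 0.915), and 0.10 without extravasated_2. With the offset it was 0.67 and called (adjusted p = 0.0429), and with the longest transcripts 0.61 and not called (adjusted p = 0.0549). The Vegfc transcript has a low GC content, 44.9%, at percentile 21.5. The remaining ligands were scarce: Pgf, placental growth factor, had 6 to 40 reads per library, and Vegfd had 0 and 0 reads in the controls against 2 and 1 in extravasated cells.

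Without the offset, the 3 ligands together summed to 157.6 and 218.7 CPM in the controls and 195.5 and 199.9 CPM in extravasated cells. The groups overlapped in that sum while its make-up differed. Neither the sum nor the ratios below were computed with the offset. With it the log2 fold change was -1.76 for Vegfa, 0.07 for Vegfb and 0.67 for Vegfc. Reads of Vegfa per read of Vegfb were 0.680 and 1.20 in the controls and 0.254 and 0.212 in extravasated cells. On a length-scaled basis (RPKM, CPM per kilobase of the gene's annotated exons), Vegfa made 18.5% and 28.7% of the 3 ligands in the controls and 8.09% and 6.97% in extravasated cells. On that basis Vegfb was the most abundant ligand in each of the 4 libraries, at 64.0% to 87.9% of the sum. This order depends on the length used: the annotated exons of Vegfa span 4285 bases and its principal transcript 654. In CPM, Vegfa was above Vegfb in not_extravasated_2, at 110.5 against 92.3. These ratios include Vegfa, which was chosen by its pattern, and were not tested.

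Flt1 (chromosome 5, 147561604 to 147726011, minus strand) and Kdr (chromosome 5, 75932827 to 75978458, minus strand), the tyrosine kinase receptors for VEGFA, had 0 reads in each of the 4 libraries. With 3 counts as the limit that 0 allows, this leaves at most 0.158 to 0.260 CPM per library, by counting error alone. Per length, the limit for Kdr was 0.0175 to 0.0288 RPKM, against 7.59 to 25.8 RPKM for Vegfa. Flt4, the receptor for VEGFC, had 27 to 38 reads per library, at 2.69 and 2.20 CPM in the controls and 2.04 and 1.58 CPM in extravasated cells (log2 fold change -0.43; edgeR adjusted p = 0.38). Its values were lower in both extravasated libraries, and the test did not call the difference.

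**Figure D2:**
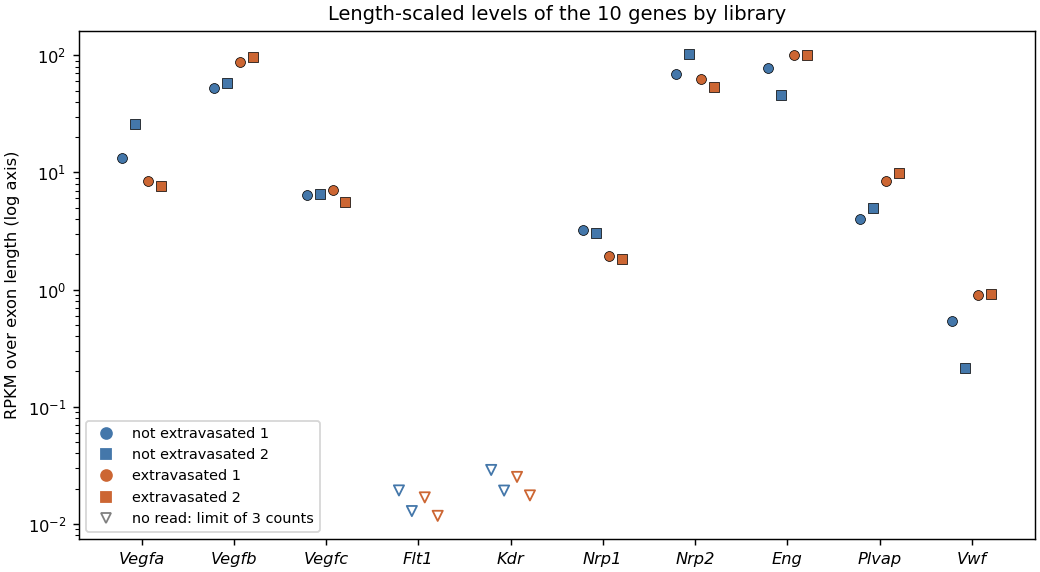
Length-scaled levels (RPKM over annotated exon length, log axis) of the 10 genes in each library, with open triangles at the limit of 3 counts where a gene had no read. Vegfb, Nrp2 and Eng lie between 45.8 and 101.9 RPKM in every library, Vwf stays under 1 RPKM, and Flt1 and Kdr are bounded at 0.0288 RPKM or less.

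The coreceptors were present in very unequal amounts. Nrp2 (chromosome 1, 62703285 to 62818695, plus strand) stood at 823.1 and 1207 CPM in the controls and at 748.8 and 636.3 CPM in extravasated cells. Nrp1 (chromosome 8, 128358604 to 128503363, plus strand) stood at 31.6 and 29.97 CPM in the controls and at 18.8 and 18.0 CPM in extravasated cells. Per length of annotated exons, Nrp2 exceeded Nrp1 21.5- to 33.3-fold, with overlapping ranges between the groups. The size of this excess depends on the length used. With the longest transcript as length, Nrp2 stood at 94.6 to 179.5 RPKM and Nrp1 at 4.99 to 8.78 RPKM.

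Nrp1 fell 1.68-fold, with replicates within 1.05-fold of each other (log2 fold change -0.74 ± 0.161, SE; edgeR adjusted p = 0.00876). It kept its call with the offset at -0.63 (adjusted p = 0.0292). Leaving out extravasated_1 or extravasated_2 left the log2 fold change at -0.75 in both fits and ended the call (adjusted p = 0.0559 and 0.0743). Nrp2 differed by -0.55 ± 0.195 on the log2 scale (SE; edgeR adjusted p = 0.058) and was not called. The value was -0.80 without not_extravasated_1 and -0.25 without not_extravasated_2. With the offset it was -0.23 (adjusted p = 0.472), and a block for the type of suffix in the titles gave -0.53 and a call (adjusted p = 0.000693). That suffix is a capital C in 1 library of each group and a lower case letter in the other, and what it stands for is not stated. Gipc1, an adaptor that binds the tail of neuropilins, rose from 118.4 ± 1.86 to 175.9 ± 5.33 CPM (SD, n = 2 each; log2 fold change 0.57, edgeR adjusted p = 0.00764), and stood at -0.02 with the offset, and it was not called without extravasated_2.

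**Figure D3:**
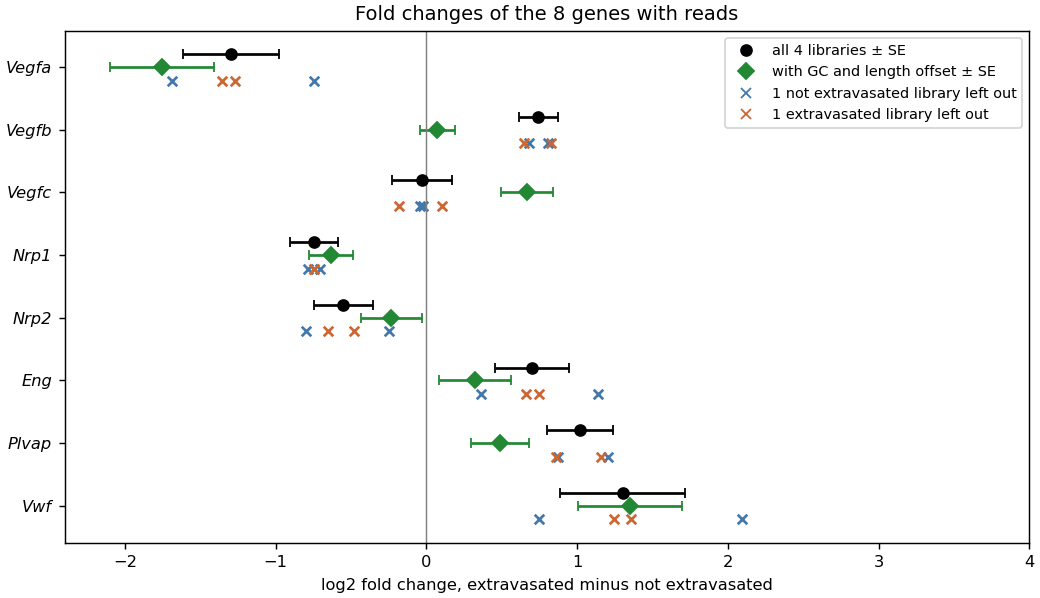
Log2 fold change (extravasated minus not extravasated) of the 8 genes with reads: circles with SE for all libraries, diamonds with SE for the fit with the GC and length offset, and crosses for fits that leave out 1 library. Nrp1 stays near -0.7 throughout, Vegfb moves to 0.07 and Vegfc to 0.67 with the offset, and Vwf spans 0.75 to 2.09 with the control that is left out.

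Plexins and class 3 semaphorins, families that include other partners of the neuropilins, were measured through 14 genes, of which 10 were tested. Of these 4 rose and 2 fell, with a median log2 fold change of 0.35 against -0.02 over all tested genes. Beside the counts of this list and the lists below, 19.1% of all tested genes rose and 25.9% fell, and 8.24% and 5.8% with the offset. Plxnd1, the plexin of the semaphorin Sema3e and of the vascular system, rose from 734.6 ± 16.7 to 1430.2 ± 13.3 CPM (SD, n = 2 each; log2 fold change 0.96, edgeR adjusted p = 0.001). It kept its call with the offset (0.79, adjusted p = 0.00759) and without each library in turn. Plxnb2 rose with 0.37, and stood at 0.22 and uncalled with the offset. Sema3e fell from 5.93 to 2.69 CPM (log2 fold change -1.14) and Sema3b rose with 0.38, and with the offset their values were 0.15 and -0.02. Leaving out extravasated_1 or extravasated_2 left 1 gene called higher and 0 lower in the list, and not_extravasated_2 left out gave 6 and 1.

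Eng (chromosome 2, 32646595 to 32682669, plus strand) encodes endoglin, a coreceptor for ligands of the TGF-beta family such as BMP9. It had 3202 to 7793 reads per library, and stood at 316.4 and 185.3 CPM in the controls and at 403.6 and 410.3 CPM in extravasated cells. The extravasated libraries agreed within 1.02-fold, and the controls differed 1.71-fold. Its log2 fold change was 0.70 ± 0.248 (SE; edgeR adjusted p = 0.0636), which the test did not call. It was 1.14 without not_extravasated_1, 0.36 without not_extravasated_2, and 0.32 with the offset and all libraries (adjusted p = 0.402). The block for the suffix in the titles gave 0.75 and a call (adjusted p = 0.00107). Eng shares 61 exonic bases with Fpgs on the opposite strand, and the strand setting of the counting is not given in the sources used here.

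Of 18 further genes of the endoglin and BMP9 complex, 16 were tested: 1 rose and 4 fell, with a median of -0.15, which was -0.27 without not_extravasated_1, -0.24 without extravasated_1, -0.05 without not_extravasated_2 and -0.01 without extravasated_2. Id3, a target of BMP receptors, rose from 8.43 ± 3.17 to 31.9 ± 1.37 CPM (SD, n = 2 each). Its log2 fold change was 1.94 (edgeR adjusted p = 0.00197), and 1.41 with the offset. Tgfbr1, a type I receptor, fell with -1.64 (edgeR adjusted p = 0.00121), and had -0.32 with the offset, where it was not called. Acvrl1, the receptor with which endoglin works in vessels, had a mean of 31.0 CPM and a log2 fold change of -0.17, not called. Gdf2, which encodes BMP9, had no read. With the offset 3 genes of this list rose and 0 fell, with a median of 0.13. Without not_extravasated_1, 3 rose and 4 fell, and without extravasated_1 or extravasated_2, 1 rose and 2 or 1 fell.

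Plvap (chromosome 8, 71497765 to 71511752, minus strand) encodes the protein of the diaphragms that span fenestrae and caveolae. It had 91 and 172 reads in the controls and 220 and 373 in extravasated cells, or 7.90 and 9.95 against 16.7 and 19.6 CPM. Both extravasated libraries were above both controls. Its log2 fold change was 1.02 ± 0.217 (SE), 2.03-fold higher, and 0.86 to 1.20 with 1 library left out. With the offset it was 0.49 ± 0.190 (SE), and the Plvap transcript has a GC content of 60.6%, at percentile 96.4.

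Of 7 caveolar partners of PLVAP, 6 were tested and 2 passed, both lower: Cav1, the scaffold of caveolae, from 20.4 ± 6.75 to 7.29 ± 0.930 CPM (log2 fold change -1.48, edgeR adjusted p = 0.00524), and Cavin2, from 125.6 ± 2.33 to 66.1 ± 10.7 CPM (-0.93, edgeR adjusted p = 0.00304; SD, n = 2 each). With the offset Cav1 had -0.49 and Cavin2 -0.12, neither called, and 1 gene of the list was called higher: Cav2, a partner of CAV1, at 0.56 (adjusted p = 0.029), against -0.61 and no call without the offset (adjusted p = 0.0777). Cav1 was not called without extravasated_2, and without not_extravasated_2 the list held 1 gene called higher and 3 lower.

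Vwf (chromosome 6, 125546774 to 125686679, plus strand) encodes von Willebrand factor, a platelet adhesion protein stored in endothelial cells and platelets. It had 100 and 59 reads in the controls and 189 and 282 in extravasated cells. Levels were 8.68 and 3.41 CPM against 14.3 and 14.8 CPM. The extravasated libraries were within 1.04-fold of each other and the controls 2.54-fold apart. The log2 fold change was 1.30 ± 0.413 (SE), 2.46-fold higher. Without not_extravasated_1 it was 2.09 and without not_extravasated_2 it was 0.75. With the offset it was 1.35, and 2.03 without not_extravasated_1 and 0.85 without not_extravasated_2. The transcript's GC content, 56.5%, lies at percentile 82.6. Per length Vwf was the lowest of the 8 genes with reads, at 0.213 to 0.924 RPKM.

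The coagulation and platelet genes listed with Vwf numbered 18, of which 9 were tested and 2 passed, both lower. Tfpi, an inhibitor of tissue factor, fell from 158.1 ± 59.3 to 62.4 ± 4.09 CPM (log2 fold change -1.34, edgeR adjusted p = 0.0096), and F3, tissue factor itself, fell from 50.2 ± 13.1 to 27.97 ± 1.13 CPM (-0.84, edgeR adjusted p = 0.0127; SD, n = 2 each). Neither was called with the offset (-0.40 and -0.37) or without extravasated_1 or extravasated_2. Adamts13, the protease that trims VWF, averaged 0.566 CPM and was not tested. The platelet genes Pf4, Ppbp and Selp had no read.

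Markers of other cell types were read beside Eng, Plvap and Vwf. Of 24 endothelial markers 10 had no read, among them Cdh5, Cldn5, Erg, Tie1 and Tek, and Pecam1 had 1 to 13 reads per library. Their summed level was 21.96 and 22.5 CPM in the controls and 25.3 and 29.1 CPM in extravasated cells. Egfl7, Ecscr and Tal1 made up most of it, and none of these 3 was called (edgeR log2 fold change 0.64 for Egfl7 and 0.51 for Ecscr, and 5.06 CPM in both groups for Tal1). Among the 5 tested endothelial markers 1 passed the test, Ptprb, which fell, at a mean of 0.990 CPM. It had 5 to 24 reads per library, and with the offset it was not called (log2 fold change -0.52, edgeR adjusted p = 0.508). Lymphatic markers, 7 in all, summed to 68.1 to 74.0 CPM, mostly Pdpn, with Lyve1 at 0, and Prox1 fell from 7.97 to 2.90 CPM (edgeR adjusted p = 0.00814) but was not called with the offset or without extravasated_1 or extravasated_2. Blood cell markers summed to 4.74 to 6.13 CPM, mostly Cd68, with Ptprc at 0. The 12 mural and fibroblast markers summed to 23.7 to 27.9 CPM with Dcn and Lum at 0, and of 5 tested Col1a1 rose (0.83) and Pdgfra fell (-1.46), both uncalled with the offset. The host was zebrafish and the counts are of mouse genes, and the source of these reads was not tested. In bulk RNA, fewer cells of a type and less RNA per cell cannot be told apart.

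The HIF pathway, which controls Vegfa, was read through regulators and through targets. Of 15 tested regulators 3 rose and 6 fell, with a median log2 fold change of -0.70, and -0.21 without not_extravasated_2. This list mixes HIF subunits and coactivators with genes that act against HIF, so its median gives no direction for the pathway. Without extravasated_2, 1 rose and 4 fell, and without not_extravasated_1, 4 rose and 9 fell. Hif1a, the oxygen-regulated subunit, fell from 319.8 ± 13.0 to 105.6 ± 5.76 CPM (SD, n = 2 each; log2 fold change -1.60, edgeR adjusted p = 0.000719), and Ep300, a coactivator, fell with -1.08. Genes that act against HIF went both ways. Egln2, a prolyl hydroxylase that marks HIF for destruction, rose with 1.02, and Elob (0.74) and Hif1an (0.46) also rose. Cul2 (-1.19, edgeR adjusted p = 0.00196) and Eloc (-0.75, edgeR adjusted p = 0.00495) fell. With the offset Ep300 was called (-0.69, adjusted p = 0.0205), while Hif1a (-0.37, adjusted p = 0.103) and Egln2 (0.48, adjusted p = 0.0525) were not. Cul2 stood at 0.01 and was not called, and the list median was -0.07. The list then held 2 genes called higher, among them Hif1an (0.61, adjusted p = 0.0188), and 3 lower. Those lower included Egln1, which like Egln2 acts against HIF, at -1.03 (adjusted p = 0.0495), against -0.70 and no call without the offset. They also included Epas1, the other oxygen-regulated subunit, at -1.28 (adjusted p = 0.0182) and the same without the offset (adjusted p = 0.00613).

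Of 17 tested HIF targets, 1 rose and 8 fell, with a median of -0.54, where 19.1% and 25.9% of all tested genes rose and fell. With the offset the median was -0.60, and 0 rose and 4 fell, against 8.24% and 5.8% of all tested genes. The target that rose was Ldha (log2 fold change 0.33), which stood at 0.19 and uncalled with the offset. Car9 (0.24) and Pgk1 (0.12) also lay above 0, without a call. Plod2, a collagen lysyl hydroxylase, fell from 182.2 ± 5.42 to 49.6 ± 0.935 CPM (SD, n = 2 each; log2 fold change -1.88, edgeR adjusted p = 0.000719), and Kdm3a, a histone demethylase, fell with -1.34. With the offset both kept their call, at -0.89 and -0.54. Bnip3l, a mitophagy receptor, fell with -1.65 and P4ha1, a collagen prolyl hydroxylase, with -0.77, and neither was called with the offset (-0.61 and -0.07). Centred on the 4-library mean, the targets' median was 0.12 in not_extravasated_1, 0.56 in not_extravasated_2, -0.26 in extravasated_1 and -0.32 in extravasated_2 (log2). Vegfa had 0.14, 1.08, -0.53 and -0.68 in the same order, so both were highest in not_extravasated_2. Without that library the targets' median log2 fold change was -0.16. It was -0.77 without not_extravasated_1, -0.66 without extravasated_1 and -0.56 without extravasated_2. These lists were drawn up with results of these data known, and their part in the Vegfa level was not tested.

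**Figure D4:**
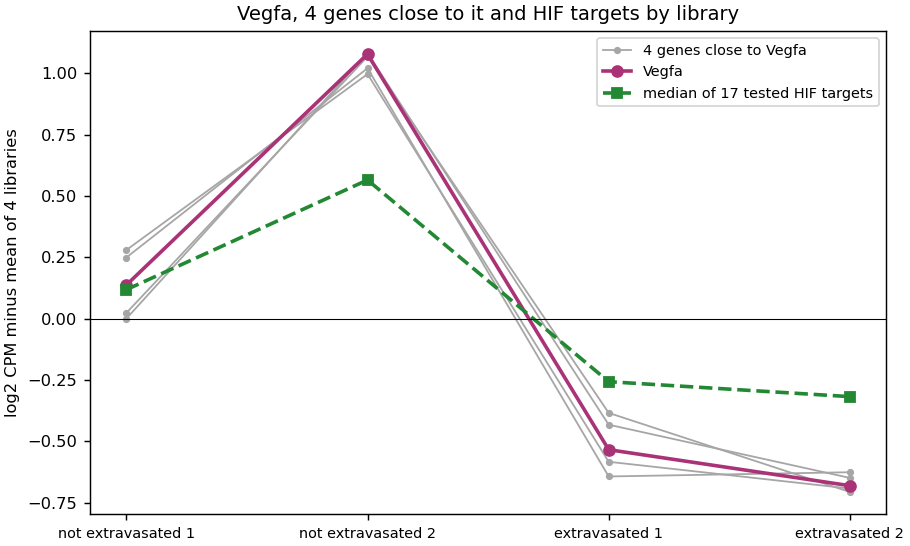
Log2 CPM of Vegfa, of 4 genes close to it and the median of 17 tested HIF targets in each library, as the deviation from the mean of the 4 libraries. All peak in not_extravasated_2 (Vegfa 1.08, HIF targets 0.56) and lie below 0 in both extravasated libraries.

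Among 8346 genes that averaged 10 CPM or more, 4 of the 5 whose pattern lay nearest to that of Vegfa were Slc38a2, an amino acid transporter, Idh1, an isocitrate dehydrogenase, Ak4, a mitochondrial adenylate kinase, and Plekha2. Their Euclidean distances over the 4 libraries were 0.172 to 0.190 on the log2 scale. Slc38a2 stood at 99.4 and 163.5 CPM in the controls and at 54.6 and 50.6 CPM in extravasated cells. They were chosen on these 4 values, so their log2 fold changes of -1.34 to -1.18 follow from the choice. With the offset these were -0.36 for Slc38a2, -0.39 for Idh1, -0.996 for Ak4 and -0.63 for Plekha2, against -1.76 for Vegfa.

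Signalling genes downstream of VEGF receptors, most of them shared with other receptors, split by direction. Of 31 tested, 10 rose and 13 fell, with a median of -0.15. Map2k2, a MAPK kinase, rose from 77.8 ± 7.88 to 158.4 ± 7.42 CPM (SD, n = 2 each; log2 fold change 1.03, edgeR adjusted p = 0.00156) and kept its call with the offset (0.54). Pik3ca, a lipid kinase subunit, fell with -1.24 (edgeR adjusted p = 0.00163), and with the offset it stood at 0.29 without a call. With the offset 2 genes of the list rose and 0 fell, and the median was 0.04. Without extravasated_2, 3 rose and 7 fell, and without extravasated_1, 6 rose and 10 fell.

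Among angiogenesis inhibitors 10 were tested, of which 1 rose and 3 fell (median -0.56, -0.58 with the offset, and -0.30 without not_extravasated_2). Adamts1, a protease that binds VEGFA, fell from 208.6 ± 0.615 to 113.7 ± 15.7 CPM (SD, n = 2 each; log2 fold change -0.88, edgeR adjusted p = 0.00283) and kept its call with the offset (-0.64, adjusted p = 0.0166) and without each library. Timp3, a protease inhibitor that blocks KDR, fell with -1.05 and Cxcl10, a chemokine, with -1.04, neither called with the offset, while Timp2 rose with 0.56 and stood at 0.34 with it. Without not_extravasated_1, 2 rose and 6 fell, and without extravasated_1 or extravasated_2 the 2 that passed were lower. Of 9 other angiogenic factors tested 2 passed, both higher, and neither was called with the offset. Apln, the peptide ligand of the apelin receptor, rose from 0.752 to 2.15 CPM (log2 fold change 1.58, edgeR adjusted p = 0.0423), on 8 to 50 reads per library. It was 1.06 without not_extravasated_2 (adjusted p = 0.129), 1.89 without extravasated_1 (adjusted p = 0.0646) and 1.16 without extravasated_2 (adjusted p = 0.26), none of them called, and 2.22 and called without not_extravasated_1. In this list 5 genes rose without not_extravasated_1, while neither of the 2 kept its call without extravasated_1 or without extravasated_2. In the angiopoietin list 5 were tested. Angptl2, a secreted glycoprotein, rose from 79.7 ± 8.94 to 132.0 ± 12.1 CPM (SD, n = 2 each; 0.73, edgeR adjusted p = 0.00612) and had 0.46 with the offset (adjusted p = 0.0557) and no call without extravasated_2, and Ptprb was the single gene that fell. With the offset Ptprb stood at -0.52 and was not called. Angpt2 averaged 28.5 CPM, not called, and its receptor Tek had no read.

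**Figure D5:**
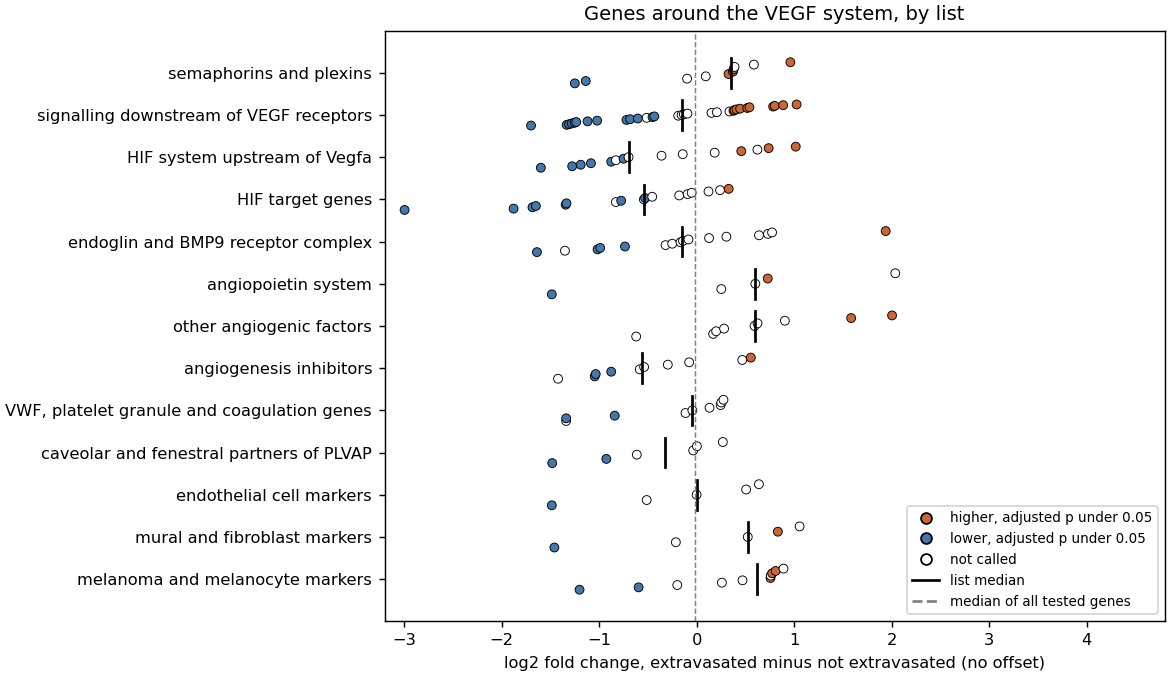
Log2 fold change (no offset) of each tested gene by list, the 10 main genes left out: filled points passed the edgeR test, open points did not, black bars are list medians and the dashed line is the median of all tested genes (-0.02). HIF targets lie mostly to the left (median -0.54) and plexins and semaphorins to the right (median 0.35).

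Over these lists 38 named genes were called. With the offset 8 of them kept the call and 31 kept their direction. All 38 were named because they were called in these same libraries, so keeping a direction with 1 library left out follows in part from the choice. Of the 38, 25 kept it without extravasated_1 and 19 without extravasated_2, and all 38 kept their direction in the fits that left out 1 library and used no offset.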

How the data were processed

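The authors deposited 1 table of raw counts (unnormalized whole numbers, 1 row a gene) for 4 libraries in 2 groups of 2. Per the submitters' processing notes the tools include bcl2fastq 2.18.0.12 and STAR 2.5.3a, with GRCm38 as build, and a stranded mRNA kit per the labels' protocols. The counter, annotation release and strand setting are not given in the sources used here. Of 53465 identifiers 53360 matched GENCODE M21 (GRCm38) without version and 105 did not. Groups follow the labels' extravasation field, and replicate numbers only name libraries.

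From the counts, edgeR 4.0.16 (R 4.3.3) compared extravasated with not extravasated libraries in a two-sided quasi-likelihood test: default filter (minimum count 10, total 15), TMM factors, robust dispersion, no covariate, Benjamini-Hochberg adjustment over 12320 genes, threshold 0.05. Standard errors are the fold change over the root of F. The limit of 3 counts for a zero covers counting error only. The offset was a smooth (mgcv 1.9.3, basis size 10) of each library's deviation in log2 CPM (prior count 2) on the GC content and the log2 length of APPRIS principal transcripts, and mitochondrially encoded genes received none. Alternatives were RLE and upper quartile factors, library totals, DESeq2 1.42.0, limma-voom (limma 3.58.1), other filters, the kind of title suffix as a term, and leaving out each library. The code was tested on simulated counts. Members, lists and tests were chosen with earlier results of these data known. Besides the 10 genes, up to 4 called genes per list with the smallest adjusted p and a mean of at least 1 CPM were described, the 3 most abundant of each marker list, and the 5 genes nearest to Vegfa; some genes these rules chose are not reported here. Single genes beyond that rule (Acvrl1, Adamts13, Angpt2, Car9, Cav2, Egln1, Elob, Eloc, Epas1, Hif1an, Ldha, Pecam1, Pgk1, Ptprb, Pgf and Vegfd, and markers with no read) were named after their values were seen.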

Additional observations from a re-analysis of the deposited data

How the results depend on the processing

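With 2 libraries a group, the counts of called genes rest on few degrees of freedom. The number of called genes was 5551, moved to 1729 with the GC and length offset and to 1669 with longest transcripts, and spanned 1677 to 6185 over fits that left out 1 library. With the offset and 1 library left out it was 2994 without not_extravasated_1, 2130 without not_extravasated_2, and 0 without extravasated_1 or extravasated_2, where edgeR held 2412 and 2065 genes at an unadjusted p under 0.05. A group left with 1 library takes its spread from the other group. Of the 5 tested genes not chosen by pattern, the number that rose was 1 in the main test, 2 with upper quartile factors, library totals, DESeq2, limma-voom, no expression filter or the title suffix term, each time with Eng added, 0 with the offset on longest transcripts, and 0 to 2 with 1 library left out. The number that fell was 1, and 2 with DESeq2, no expression filter or the title suffix term, where Nrp2 was added, and 0 to 2 with 1 library left out. Directions turned for Vegfc with upper quartile factors (0.0599), with the offset (0.67, and 0.61 with longest transcripts), and in the fits that left out 1 library (-0.18 to 0.10 without the offset, 0.57 to 0.76 with it, 0.73 of these without not_extravasated_2 and 0.61 without not_extravasated_1). They also turned for Nrp2 (0.13) and Eng (-0.0188) with the offset and without not_extravasated_2. The labels give no shared replicate numbers. The fit with the kind of title suffix as a block set the library with a capital C in each group against the other, and called 6165 genes, but nothing states that this suffix pairs libraries, and the lower case letters differ between groups. The cause of these changes was not tested.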
